A study of Homo sapiens and Mus musculus with 36 samples.

Results

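The mouse cell lines Hepa1-6 and Hep53.4 both carry the label hepatocellular carcinoma, and the difference between their transcriptomes at baseline is described here. The comparison took every mouse liver tumour library, 6 of Hepa1-6 and 6 of Hep53.4, which makes 12 of the 36 libraries of the series. In each line 2 libraries carried the Dot1l guide sgRNA#1, 2 carried the Dot1l guide sgRNA#2 (genotype label Dot1l_KO for both) and 2 carried the control guide sgNeg2 (genotype label WT). Dot1l encodes the histone H3 lysine methyltransferase that the series was built to study; its loss is not the subject here, so guide entered the model as a factor and the sgNeg2 libraries, 2 against 2, are given beside the full comparison. All cells grew in DMEM with fetal bovine serum and antibiotics, and no treatment is given for these lines. Each line is a single line, so differences between the tumours of origin, between cultures and between library batches cannot be told apart. The labels do not say whether the replicates were separate cultures, so p-values reflect the variation among these libraries alone, which may be technical.

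Adult hepatocytes make most plasma proteins, such as albumin, fibrinogen and the complement components, and carry out the urea cycle, gluconeogenesis and drug oxidation, under a network of transcription factors that includes Hnf4a, Cebpa and the Foxa factors. Fetal hepatoblasts and many liver tumours express alpha-fetoprotein and glypican-3, while bile duct and progenitor cells carry keratins 7 and 19, Epcam and Sox9. Epithelial cells adhere through E-cadherin, desmosomes and tight junctions, and mesenchymal cells through N-cadherin and an interstitial matrix, with factors of the Snail, Zeb and Runx families linked to that state. Interferons signal through Jak1, Jak2 and Tyk2 to factors of the Stat and Irf families, which switch on antiviral genes and the machinery that loads peptides on class I molecules.

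Libraries held between 42637155 and 59237653 counts over 22673 gene symbols, and levels are given as CPM, counts scaled to a common library size after TMM normalization. In Hepa1-6 14041 to 14741 genes were detected, and in Hep53.4 13674 to 14073. Correlations of log CPM ran from 0.986 to 0.993 within a line and from 0.763 to 0.775 between lines, and the first principal component, with 92.7% of the variance, placed all Hepa1-6 libraries on one side and all Hep53.4 libraries on the other. One library stood apart on one gene. Rn45s, the precursor of ribosomal RNA, took 22232 CPM of the total in Hepa1-6 sgRNA#1 replicate 2 and 2974 to 3997 CPM in the other Hepa1-6 libraries; leaving that library out moved neither the count of genes called in either direction nor any list count of at least 3 calls of at least 4-fold by more than 1.5 times, and the other counts below were not rerun without it.

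The targeted gene was read first. Dot1l stood at 13.8 to 16.1 CPM in the 4 edited libraries of Hepa1-6, against 44.1 and 40.1 CPM in its sgNeg2 libraries, and at 11.1 to 15.98 CPM in the 4 edited libraries of Hep53.4, against 22.4 and 23.1 CPM in its sgNeg2 libraries. In both lines each edited library was below both sgNeg2 libraries. Over all 12 libraries the line difference of Dot1l was log2 0.37 ± 0.13 (adjusted p = 0.0164, edgeR), with log2 0.08 in edited cells and log2 0.89 in sgNeg2 cells alone, and the call was lost without either of the Hep53.4 sgNeg2 libraries (log2 0.28 without replicate 1 and 0.29 without replicate 2; adjusted p = 0.0528 and 0.0562).

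Across the genome the lines differed widely, and this sets the background for every count below. Log2 differences are Hepa1-6 over Hep53.4 with their standard error, a call is an adjusted p below 0.05 in edgeR's quasi-likelihood test with Benjamini-Hochberg adjustment, and 13362 genes were tested. Of these 11487 (86%) were called: 5827 (43.6%) were higher and 5660 (42.4%) lower in Hepa1-6. The median difference was 0.01 and the median size of the difference 0.80 on the log2 scale. Calls of at least 4-fold were fewer, with 1862 genes (13.9%) higher and 1181 (8.84%) lower, so the counts of members at least 4-fold apart say more than the counts of calls. Together these 4-fold calls made up 22.8% of the genes. The 6 libraries of one line did not overlap the 6 of the other for 9390 genes (70.3%), and for 434 of the 536 list genes described next (81.0%). In the edited libraries alone 13183 genes were tested and 86.2% were called, 43.8% higher and 42.4% lower; 13.6% were at least 4-fold higher and 8.67% at least 4-fold lower, 22.3% together. With sgNeg2 alone 12680 genes were tested and 82.8% were called, 40.8% higher and 41.9% lower; 1637 (12.9%) were at least 4-fold higher and 1141 (9%) at least 4-fold lower, 21.9% together.

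Gene lists covered 689 genes in 26 lists, of which 536 were tested. The lists were written with earlier results of these data known, so their shares are descriptive and no independent evidence. Of the 536, 221 (41.2%) were at least 4-fold higher in Hepa1-6 and 56 (10.4%) at least 4-fold lower. Members of the hepatocyte lists were at least 4-fold higher in 60 of 114 cases (52.6%) and at least 4-fold lower in 10 (8.77%). For the interferon lists the counts were 88 of 178 (49.4%) and 7 (3.93%). Progenitor lists were mixed, with 16 of 53 (30.2%) higher and 6 (11.3%) lower, and so were the epithelial and mesenchymal lists, with 38 of 110 (34.5%) higher and 30 (27.3%) lower. In the growth lists 7 of 63 (11.1%) were at least 4-fold higher, and of the 22 called lower none reached that margin.

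**Figure D1:**
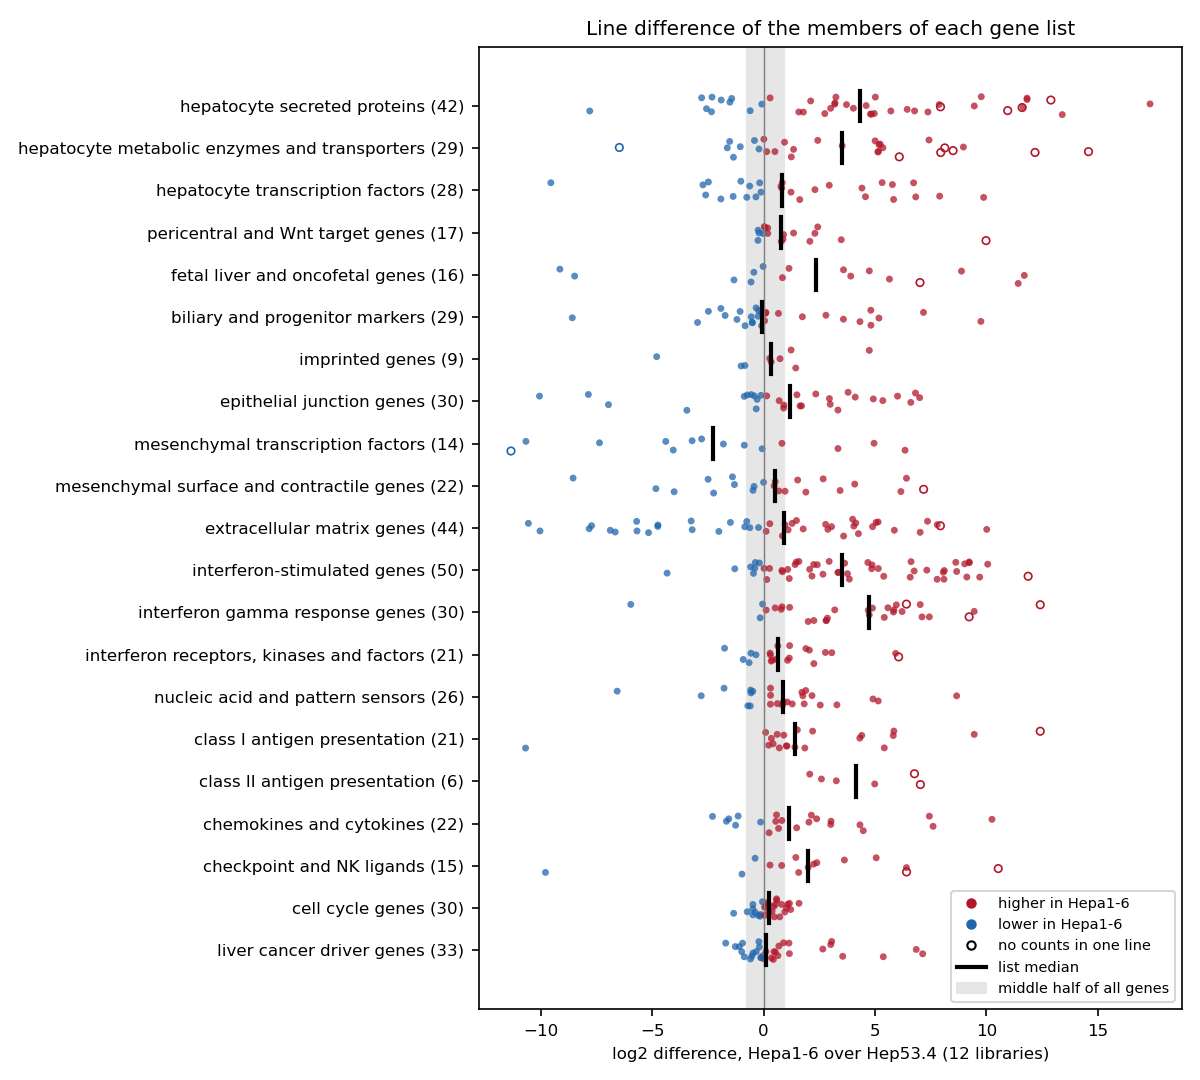
Each point is 1 tested member of a gene list, placed by its log2 difference, Hepa1-6 over Hep53.4, over 12 libraries; the number of tested members stands beside the list, black bars are list medians, hollow points had no counts in one line (their fitted value is no bound), and the grey band holds the central 50% of all tested genes. List medians run from -2.29 for mesenchymal transcription factors to 4.72 for interferon gamma response genes among the lists with more than 1 tested member.

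Hepa1-6 cells carried high levels of many plasma protein RNAs that were near or at 0 in Hep53.4. Of 61 secreted hepatocyte proteins 42 were tested: 31 were higher in Hepa1-6 and 9 lower, with a median log2 of 4.32 against 0.01 over all genes, and 29 were at least 4-fold higher against 5 at least 4-fold lower. In Hep53.4 16 of the 61 had no counts in any library, and in Hepa1-6 6 had none. The summed level of the list was 23928 to 34948 CPM in Hepa1-6 libraries and 1890 to 2358 CPM in Hep53.4 libraries. Since these are bulk samples, fewer expressing cells and less RNA per cell cannot be told apart.

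Values per library are given as the lowest, the median and the highest of the 6 in each line. Alb, serum albumin, stood at 5624, 5845 and 8445 CPM in Hepa1-6, against 1.28, 2.05 and 3.202 CPM in Hep53.4 (log2 11.64 ± 0.26, adjusted p = 1.01e-11, edgeR). The lines did not overlap, and within Hepa1-6 the sgNeg2 libraries were the highest, with a mean of 8417 CPM in Hepa1-6 and 1.31 CPM in Hep53.4 under that guide. Fgb, the fibrinogen beta chain, stood at 1166, 1332 and 1949.8 CPM in Hepa1-6, against 0, 0 and 0.0489 CPM in Hep53.4. Only 2 counts of Fgb were found in the 6 Hep53.4 libraries, so the ratio of levels, 228872 (exact 95% counting interval 63358 to 1889870), rests on counting alone. Kng1, a kininogen of the contact system, showed the same contrast, at 76.2, 87.1 and 128 CPM in Hepa1-6, against 0, 0 and 0.0489 CPM in Hep53.4; a near-identical copy, Kng2, is counted too, so reads may be split between them.

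Transferrin, apolipoprotein E and complement C3, chosen after their values were seen, gave the same contrast at high levels. Trf stood at 7703, 7932 and 11355 CPM in Hepa1-6, against 70.8, 82.3 and 90.9 CPM in Hep53.4. Apoe stood at 2032, 2307 and 2739 CPM in Hepa1-6, against 0.276, 0.631 and 1.12 CPM in Hep53.4. C3 stood at 2628, 2739 and 3750.2 CPM in Hepa1-6, against 2.53, 3.34 and 5.11 CPM in Hep53.4 (log2 9.77 ± 0.09, adjusted p = 2.06e-19, edgeR). In none of these 3 genes did the lines overlap. Ttr, the thyroxine carrier transthyretin, was low in Hepa1-6, at 4.19 to 5.44 CPM, and had no counts in Hep53.4, which makes it at least 492-fold higher in Hepa1-6 against a floor of 3 counts over the line. Apoa1, the main protein of high-density lipoprotein, was at most 0.452 CPM in any Hepa1-6 library and at most 0.0978 CPM in any Hep53.4 library. In all, 19 members, Plg, Vtn, F9, Saa1 and Saa2 among them, were too low to test in this comparison. With sgNeg2 alone the list had a median log2 of 5.24, with 29 of 39 tested higher and 8 lower, and the means were 11336 CPM in Hepa1-6 and 72.4 CPM in Hep53.4 for Trf. Under that guide Apoe averaged 2652 CPM in Hepa1-6 and 0.828 CPM in Hep53.4, and C3 averaged 3729 CPM in Hepa1-6 and 4.32 CPM in Hep53.4.

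Some secreted proteins ran the other way. Apob, the structural protein of very-low-density lipoprotein, stood at 73.2, 95.5 and 130.4 CPM in Hepa1-6, against 634, 680.1 and 693 CPM in Hep53.4 (log2 -2.78 ± 0.08, adjusted p = 1.53e-12, edgeR; sgNeg2 alone log2 -2.44). Apoh, a phospholipid-binding plasma glycoprotein, stood at 0, 0.0692 and 0.169 CPM in Hepa1-6, against 15.1, 17.1 and 19.5 CPM in Hep53.4 (log2 -7.80 ± 0.28). Both were lower in Hepa1-6 in all libraries. Cp, the copper carrier ceruloplasmin, stood at 266, 291 and 410.0 CPM in Hepa1-6, against 273, 299 and 454 CPM in Hep53.4, and the lines overlapped despite a call (log2 -0.08 ± 0.03, adjusted p = 0.0163, edgeR).

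Metabolic genes followed a similar division, and 12 of the 52 enzymes and transporters reached a mean of 5 CPM in Hepa1-6 and 7 in Hep53.4. Of the 52, 29 were tested, 19 were higher in Hepa1-6 and 5 lower, with a median log2 of 3.53. At least 4-fold higher were 16, and at least 4-fold lower 1. No counts were found for 22 in any Hep53.4 library and for 9 in Hepa1-6. Tat, tyrosine aminotransferase, stood at 45.1, 51.9 and 81.98 CPM in Hepa1-6 and had no counts in Hep53.4, which makes it at least 6105-fold higher. Nags, the synthase that makes the activator of the urea cycle, was at 19.4, 22.6 and 24.9 CPM in Hepa1-6 and had no counts in Hep53.4, at least 2279-fold. Yet the urea cycle enzyme Otc had no counts in either line, and the drug-oxidizing Cyp2e1 and Cyp3a11 had 5 and 2 counts over the 6 Hepa1-6 libraries and 0 in Hep53.4. In the other direction Cpt2, carnitine palmitoyltransferase of mitochondrial fatty acid import, stood at 20.2, 20.9 and 21.8 CPM in Hepa1-6, against 36.1, 45.6 and 49.5 CPM in Hep53.4 (log2 -1.05 ± 0.05), and Khk, ketohexokinase, at 30.7, 34.7 and 39.7 CPM in Hepa1-6, against 40.3, 48.6 and 51.04 CPM in Hep53.4 (log2 -0.41 ± 0.06), both lower in Hepa1-6. Under sgNeg2 alone Cpt2 averaged 20.2 CPM in Hepa1-6 and 36.5 CPM in Hep53.4, and of 24 enzymes and transporters tested 19 were higher and 3 lower, with a median log2 of 5.05.

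Transcription factors of the hepatocyte network were present in both lines, 19 of 28 at a mean of 5 CPM or more in Hepa1-6 and 16 in Hep53.4. All 28 were tested, 16 were higher in Hepa1-6 and 12 lower, and the median log2 was 0.83. Differences of at least 4-fold were called for 11 higher and 4 lower factors. Hnf4a, the nuclear receptor at the centre of the network, stood at 141, 149.6 and 213 CPM in Hepa1-6, against 163, 168 and 210.3 CPM in Hep53.4. The ranges overlapped, the call was small (log2 -0.12 ± 0.04, adjusted p = 0.00656, edgeR), and with sgNeg2 alone the sign turned and the call was lost (log2 0.01, adjusted p = 0.709, edgeR). Foxa2, a pioneer factor of liver development, stood at 67.5, 70.6 and 104 CPM in Hepa1-6, against 125, 133 and 144 CPM in Hep53.4 (log2 -0.76 ± 0.06), lower in Hepa1-6 without overlap.

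Other factors of the network were further apart between the lines. Cebpa, which drives hepatocyte maturation, stood at 68.1, 71.5 and 77.4 CPM in Hepa1-6, against 0.967, 1.25 and 1.598 CPM in Hep53.4 (log2 5.83 ± 0.09, adjusted p = 3.58e-18, edgeR). Mlxipl, the carbohydrate response factor ChREBP, stood at 11.2, 14.3 and 17.5 CPM in Hepa1-6, against 0, 0 and 0.0421 CPM in Hep53.4 (log2 9.87 ± 0.25). Nr5a2, a nuclear receptor of bile acid and cholesterol genes, stood at 13.3, 13.98 and 20.8 CPM in Hepa1-6, against 0, 0.0244 and 0.249 CPM in Hep53.4 (log2 7.90 ± 0.30). All 3 were higher in Hepa1-6 in each library. On the other side Gata6, a factor of early endoderm, stood at 0, 0.0411 and 0.121 CPM in Hepa1-6, against 37.8, 41.3 and 43.1 CPM in Hep53.4 (log2 -9.55 ± 0.21, adjusted p = 2.83e-15, edgeR). Nr1h4, the bile acid receptor FXR, stood at 2.65, 2.93 and 3.57 CPM in Hepa1-6, against 17.7, 19.7 and 21.9 CPM in Hep53.4 (log2 -2.72 ± 0.08). Onecut2, chosen after its values were seen and active in biliary and hepatoblast development, was lower in Hepa1-6 too (log2 -2.48 ± 0.06). With sgNeg2 alone the factors kept a median log2 of 1.08; Hnf4a averaged 211 CPM in Hepa1-6 and 209.6 CPM in Hep53.4, Cebpa averaged 73.7 CPM in Hepa1-6 and 1.07 CPM in Hep53.4, and Gata6 averaged 0.0411 CPM in Hepa1-6 and 37.9 CPM in Hep53.4.

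Genes of the pericentral, Wnt-driven zone were expressed in both lines. Of 18 such genes 17 were tested, 10 were higher in Hepa1-6 and 2 lower, 5 were not called, and the median log2 was 0.79. The 4-fold margin was reached by 5 of the higher genes and 0 of the lower. Nkd1, a feedback inhibitor of Wnt signalling, stood at 253, 276 and 366 CPM in Hepa1-6, against 23.7, 25.7 and 29.8 CPM in Hep53.4 (log2 3.48 ± 0.04, adjusted p = 4.82e-19, edgeR). Tbx3, a T-box factor downstream of beta-catenin, stood at 149.6, 164 and 197 CPM in Hepa1-6, against 29.9, 32.5 and 42.1 CPM in Hep53.4 (log2 2.30 ± 0.03). Axin2, a common readout of Wnt signalling, stood at 123, 132 and 136 CPM in Hepa1-6, against 116, 130.1 and 136 CPM in Hep53.4 and was not called (log2 0.03 ± 0.04, adjusted p = 0.509, edgeR). Lgr5, the R-spondin receptor, stood at 51.6, 58.7 and 78.7 CPM in Hepa1-6, against 66.1, 74.2 and 78.5 CPM in Hep53.4; it overlapped between lines and its call (log2 -0.25 ± 0.06) was lost with sgNeg2 alone (log2 -0.01, adjusted p = 0.807, edgeR). Oat, ornithine aminotransferase, stood at 111, 116 and 121 CPM in Hepa1-6, against 136, 137 and 140.5 CPM in Hep53.4 (log2 -0.25 ± 0.03), slightly lower in Hepa1-6 without overlap. Under sgNeg2 Nkd1 averaged 361 CPM in Hepa1-6 and 29.3 CPM in Hep53.4 and Axin2 133 CPM in Hepa1-6 and 117 CPM in Hep53.4.

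**Figure D2:**
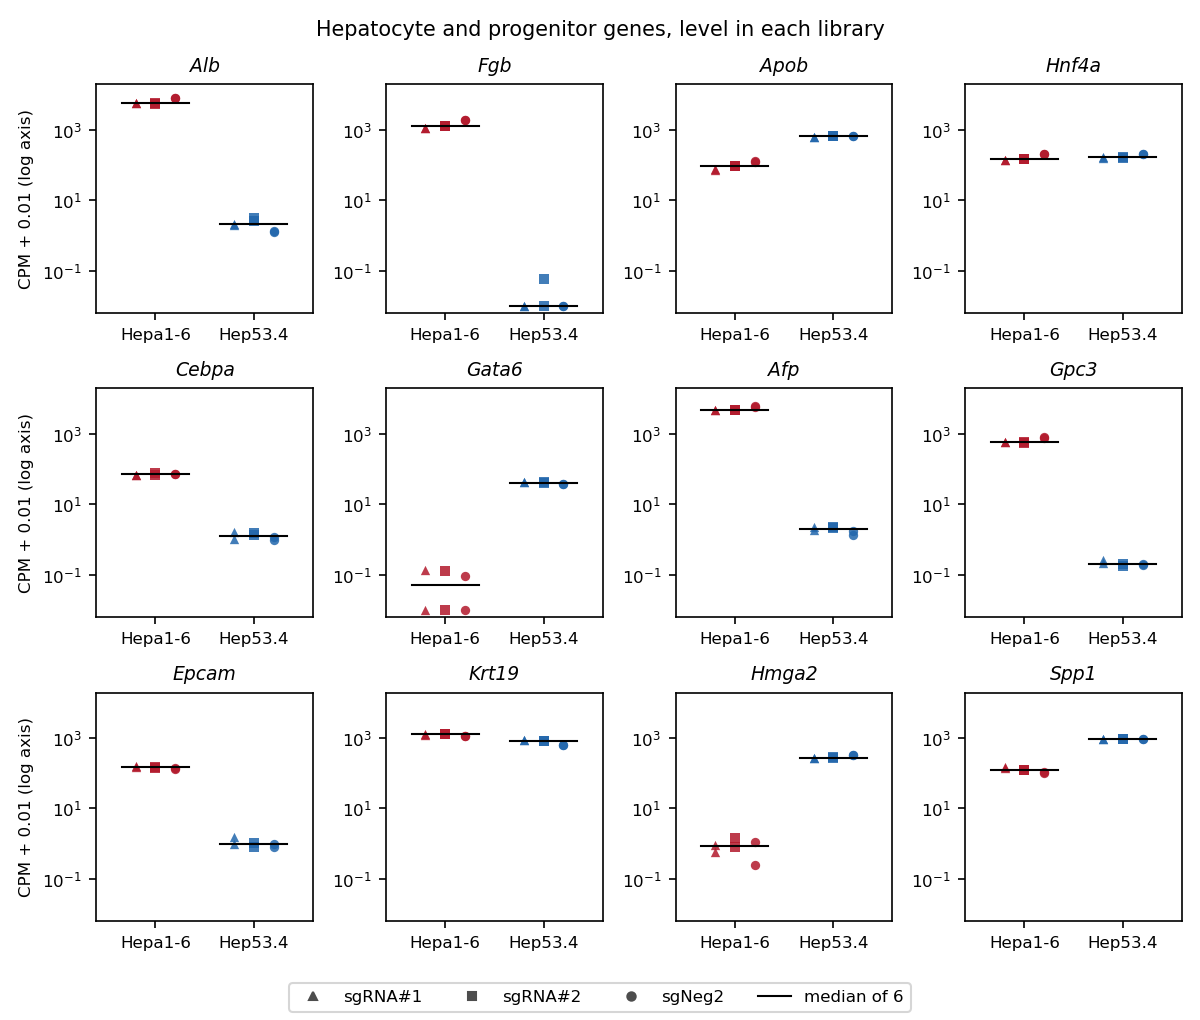
Level of 12 hepatocyte and progenitor genes in each library, as CPM plus 0.01 on a log axis, with Hepa1-6 on the left and Hep53.4 on the right; marker shapes are guides and lines are medians of 6. Alb reaches 8445 CPM in Hepa1-6 and 3.202 CPM in Hep53.4, Hnf4a sits between 141 and 213 CPM in both, and Gata6, Hmga2, Apob and Spp1 are lower in Hepa1-6.

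Oncofetal genes split in both directions. Of 24 fetal liver and oncofetal genes 16 were tested, 10 were higher in Hepa1-6 and 5 lower, with a median log2 of 2.36. By at least 4-fold 8 were higher and 2 lower. Afp, alpha-fetoprotein, stood at 4767, 4946 and 6193 CPM in Hepa1-6, against 1.37, 1.96 and 2.31 CPM in Hep53.4 (log2 11.42 ± 0.13, adjusted p = 1.13e-16, edgeR; sgNeg2 alone log2 11.96). Gpc3, the surface proteoglycan glypican-3, stood at 578, 603 and 822 CPM in Hepa1-6, against 0.168, 0.194 and 0.251 CPM in Hep53.4 (log2 11.70 ± 0.07). Neither overlapped. The reverse held for Hmga2, a chromatin protein of embryonic cells that let-7 restrains, at 0.226, 0.825 and 1.47 CPM in Hepa1-6, against 267, 280.2 and 340.1 CPM in Hep53.4 (log2 -8.48 ± 0.20, adjusted p = 5.02e-12, edgeR), and for Bex1, at 0.313, 0.547 and 0.842 CPM in Hepa1-6, against 305, 321 and 341 CPM in Hep53.4 (log2 -9.14 ± 0.08). Igf2bp1, an RNA-binding protein of fetal tissues chosen after its values were seen, stood at 61.9, 66.5 and 71.95 CPM in Hepa1-6, against 62.95, 68.3 and 74.01 CPM in Hep53.4 and was not called (log2 -0.02 ± 0.04, adjusted p = 0.568, edgeR). Under sgNeg2 alone Afp averaged 6137 CPM in Hepa1-6 and 1.55 CPM in Hep53.4, Gpc3 808 CPM in Hepa1-6 and 0.186 CPM in Hep53.4, and Hmga2 0.657 CPM in Hepa1-6 and 339 CPM in Hep53.4.

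Most imprinted genes were low in both lines. Of 30 imprinted genes 21 were too low to test, and of the 9 tested 5 were higher in Hepa1-6 and 2 lower. Only 1 was at least 4-fold higher and 1 at least 4-fold lower. Igf2, the fetal growth factor, stood at 2.55, 2.75 and 3.66 CPM in Hepa1-6, against 0, 0.0892 and 0.257 CPM in Hep53.4 (log2 4.74 ± 0.35). H19, its neighbour, was at most 0.349 CPM in a Hepa1-6 library and had no counts in Hep53.4, and Dlk1, the delta-like hepatoblast marker, was at most 0.0694 CPM in a Hepa1-6 library with no counts in Hep53.4. Zrsr1 stood at 26.5, 27.8 and 30.5 CPM in Hepa1-6, against 9.79, 10.3 and 10.9 CPM in Hep53.4 (log2 1.44 ± 0.06) and Kcnq1ot1 at 8.32, 9.67 and 11.4 CPM in Hepa1-6, against 3.37, 3.65 and 6.28 CPM in Hep53.4 (log2 1.23 ± 0.13); both lie within another gene, and the use of strand in counting is not given in the sources used here, so their reads may include those of the host.

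Biliary and progenitor markers gave no common direction. Of 35 markers 29 were tested, 11 were higher in Hepa1-6 and 15 lower, with a median log2 of -0.09. At the 4-fold margin 8 were higher and 3 lower. Epcam, the epithelial adhesion molecule of progenitor cells, stood at 129, 146 and 160.5 CPM in Hepa1-6, against 0.782, 0.959 and 1.47 CPM in Hep53.4 (log2 7.18 ± 0.08, adjusted p = 1.88e-19, edgeR), and the tight junction claudin Cldn4 at 112, 118 and 123 CPM in Hepa1-6, against 0.0356, 0.145 and 0.239 CPM in Hep53.4 (log2 9.75 ± 0.11). Krt7, a bile duct keratin chosen after its values were seen, stood at 489.9, 556 and 591 CPM in Hepa1-6, against 17.2, 17.9 and 23.01 CPM in Hep53.4 (log2 4.81 ± 0.09). All 3 were higher in Hepa1-6. Krt19 stood at 1136, 1281 and 1347 CPM in Hepa1-6, against 648, 837 and 891 CPM in Hep53.4 (log2 0.66 ± 0.04), high in both lines and without overlap. Krt8, a keratin of simple epithelia, stood at 1658, 1801 and 1931 CPM in Hepa1-6, against 1455, 1768 and 1883 CPM in Hep53.4; the lines overlapped and the call (log2 0.08 ± 0.04, adjusted p = 0.0484, edgeR) was lost without any single sgNeg2 or sgRNA#2 library, with adjusted p between 0.0809 and 0.150, in edited cells (log2 0.03) and with the replicate block (adjusted p = 0.0626).

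Lower in Hepa1-6 were Sox9, the bile duct factor, at 28.1, 30.8 and 32.7 CPM in Hepa1-6, against 52.3, 54.5 and 55.7 CPM in Hep53.4 (log2 -0.83 ± 0.04), and Spp1, osteopontin, at 104, 123 and 147 CPM in Hepa1-6, against 939.5, 955 and 975 CPM in Hep53.4 (log2 -2.96 ± 0.06, adjusted p = 9.25e-16, edgeR). Aqp1, a water channel of bile duct epithelium, stood at 0.127, 0.286 and 0.862 CPM in Hepa1-6, against 121, 146 and 165 CPM in Hep53.4 (log2 -8.59 ± 0.19). For each of these 3 genes the libraries of the lines did not overlap. Cultures of Hep53.4 thus held Sox9, Spp1 and Aqp1 with little Epcam, and cultures of Hepa1-6 held Epcam, Krt7 and Cldn4 with less Sox9 and almost no Aqp1. The same order stood under sgNeg2 alone, where Epcam averaged 133 CPM in Hepa1-6 and 0.865 CPM in Hep53.4, Krt19 1139.8 CPM in Hepa1-6 and 652 CPM in Hep53.4, and Spp1 105 CPM in Hepa1-6 and 955 CPM in Hep53.4.

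Epithelial junction genes were split within the same structures. Of 35 genes 30 were tested, 19 were higher in Hepa1-6 and 11 lower, with a median log2 of 1.20. Calls of at least 4-fold numbered 12 higher and 4 lower. Cdh1, E-cadherin, the core of the adherens junction, stood at 0.833, 1.01 and 1.502 CPM in Hepa1-6, against 1067, 1080.3 and 1274 CPM in Hep53.4 (log2 -10.06 ± 0.09, adjusted p = 2.43e-19, edgeR; sgNeg2 alone log2 -10.39). No library of one line came near those of the other. Cldn2, a pore-forming claudin, stood at 0.972, 2.06 and 2.58 CPM in Hepa1-6, against 391, 405 and 544 CPM in Hep53.4 (log2 -7.87 ± 0.12), also lower in Hepa1-6.

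Some desmosome and tight junction genes ran opposite to Cdh1. Dsc2, a desmosomal cadherin, stood at 43.9, 64.8 and 70.8 CPM in Hepa1-6, against 0.271, 0.426 and 0.661 CPM in Hep53.4 (log2 7.00 ± 0.09, adjusted p = 3.82e-19, edgeR), and Tjp3, the scaffold ZO-3, at 34.4, 36.6 and 37.5 CPM in Hepa1-6, against 0.0774, 0.281 and 0.589 CPM in Hep53.4 (log2 6.82 ± 0.17). Among genes chosen after their values were seen, Dsg2, the partner of Dsc2, stood at 112, 125 and 133 CPM in Hepa1-6, against 13.5, 16.01 and 18.9 CPM in Hep53.4 (log2 2.95 ± 0.05), and Ehf, an epithelial Ets factor, at 79.5, 92.01 and 97.2 CPM in Hepa1-6, against 2.395, 3.07 and 3.36 CPM in Hep53.4 (log2 4.92 ± 0.08). These 4 genes were higher in Hepa1-6 in each library. Hepa1-6 thus held less E-cadherin RNA and more RNA of these 4 genes than Hep53.4 did. The desmosome genes Jup and Pkp2, also chosen after their values were seen, went with Cdh1. Jup stood at 205.6 to 236.5 CPM in Hepa1-6, against 249.6 to 280.8 CPM in Hep53.4. Pkp2 stood at 37.3 to 43.2 CPM in Hepa1-6, against 52.7 to 59.0 CPM in Hep53.4. Desmosome genes thus had no single direction. Under sgNeg2 alone Cdh1 averaged 0.95 CPM in Hepa1-6 and 1263 CPM in Hep53.4, and Dsc2 averaged 45.2 CPM in Hepa1-6 and 0.322 CPM in Hep53.4.

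Mesenchymal transcription factors were on balance lower in Hepa1-6. Of 22 factors 14 were tested, 4 were higher and 9 lower, with a median log2 of -2.29, and 3 were at least 4-fold higher against 7 at least 4-fold lower. Snai2, the repressor Slug, had no counts in Hepa1-6 and stood at 4.69, 6.15 and 7.83 CPM in Hep53.4, at least 654-fold higher in Hep53.4. Foxf2, a forkhead factor of mesenchyme, stood at 0, 0.0183 and 0.0422 CPM in Hepa1-6, against 33.4, 35.2 and 38.4 CPM in Hep53.4 (log2 -10.67 ± 0.17). Zeb1, a repressor of E-cadherin, stood at 25.1, 27.6 and 34.7 CPM in Hepa1-6, against 49.1, 51.8 and 59.9 CPM in Hep53.4 (log2 -0.87 ± 0.05, adjusted p = 9.88e-11, edgeR). The opposite held for Snai1, the Snail repressor, at 12.4, 15.5 and 18.4 CPM in Hepa1-6, against 1.22, 1.52 and 1.78 CPM in Hep53.4 (log2 3.34 ± 0.10), and Osr1, at 5.46, 6.22 and 8.36 CPM in Hepa1-6, against 0.0359, 0.184 and 0.379 CPM in Hep53.4 (log2 4.96 ± 0.25). Runx1, chosen after its values were seen, stood at 0.253, 0.372 and 0.626 CPM in Hepa1-6, against 63.3, 65.3 and 85.9 CPM in Hep53.4 (log2 -7.37 ± 0.13). Each of these 6 factors was separated without overlap, and under sgNeg2 alone Zeb1 averaged 34.4 CPM in Hepa1-6 and 57.5 CPM in Hep53.4 and Snai1 18.4 CPM in Hepa1-6 and 1.699 CPM in Hep53.4.

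Surface and contractile genes had no single direction: of 28 genes 22 were tested, with 12 higher in Hepa1-6, 9 lower and a median log2 of 0.50. Among them 6 were at least 4-fold higher and 5 at least 4-fold lower. Vim, the intermediate filament vimentin, was abundant in both lines, at 1732, 1897 and 2025 CPM in Hepa1-6, against 3986, 5359.8 and 5674 CPM in Hep53.4 (log2 -1.40 ± 0.04, adjusted p = 3.16e-14, edgeR). Cdh2, N-cadherin, which hepatocytes also carry, stood at 7.18, 8.16 and 9.42 CPM in Hepa1-6, against 112, 125 and 161 CPM in Hep53.4 (log2 -4.02 ± 0.05). S100a4, a calcium-binding protein of motile cells, stood at 8.87, 15.6 and 17.6 CPM in Hepa1-6, against 349, 397 and 423 CPM in Hep53.4 (log2 -4.83 ± 0.09), and Ncam1, the neural cell adhesion molecule, at 0, 0 and 0.0549 CPM in Hepa1-6, against 5.07, 7.104 and 8.48 CPM in Hep53.4 (log2 -8.55 ± 0.30). Hep53.4 cultures thus held E-cadherin, N-cadherin and vimentin RNA together. Higher in Hepa1-6 were Nt5e, the ectonucleotidase CD73, at 22.6, 27.3 and 30.02 CPM in Hepa1-6, against 0.142, 0.329 and 0.547 CPM in Hep53.4 (log2 6.41 ± 0.15), and Gas6, the ligand of Axl, at 243, 263 and 277 CPM in Hepa1-6, against 2.92, 3.598 and 4.74 CPM in Hep53.4 (log2 6.16 ± 0.07). Under sgNeg2 alone Vim averaged 1735 CPM in Hepa1-6 and 3997 CPM in Hep53.4 and Cdh2 8.903 CPM in Hepa1-6 and 158 CPM in Hep53.4.

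**Figure D3:**
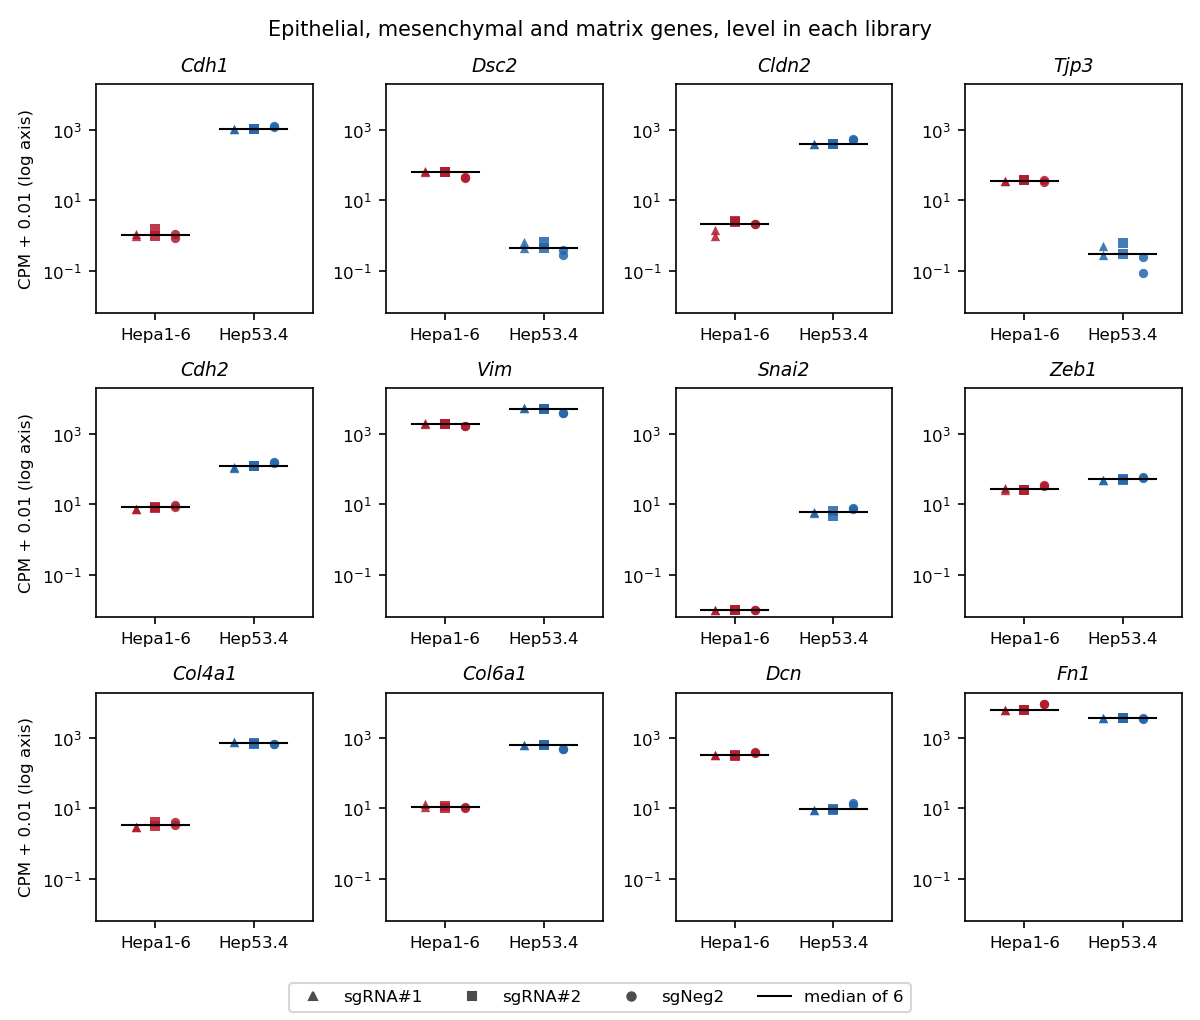
Level of 12 epithelial, mesenchymal and matrix genes in each library, as CPM plus 0.01 on a log axis, with Hepa1-6 on the left and Hep53.4 on the right; marker shapes are guides and lines are medians of 6. Cdh1 and Cldn2 are low in Hepa1-6 where Dsc2 and Tjp3 are high, Snai2 is at 0 in all Hepa1-6 libraries, and Fn1 is high in every library of both lines.

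Matrix genes split in both directions. Of 49 genes 44 were tested, 22 were higher in Hepa1-6 and 19 lower, and 17 were at least 4-fold higher against 14 at least 4-fold lower, with a median log2 of 0.90. Several collagens were lower in Hepa1-6: Col4a1, of the basement membrane, stood at 2.94, 3.28 and 3.99 CPM in Hepa1-6, against 684, 713 and 772 CPM in Hep53.4 (log2 -7.72 ± 0.08, adjusted p = 2.66e-19, edgeR), Col6a1 at 10.2, 10.8 and 13.1 CPM in Hepa1-6, against 491, 623 and 636 CPM in Hep53.4 (log2 -5.70 ± 0.06) and Col6a2 at 0, 0.0978 and 0.164 CPM in Hepa1-6, against 99.3, 135 and 146 CPM in Hep53.4 (log2 -10.56 ± 0.16). Fbln2, the matrix glycoprotein fibulin-2, stood at 0, 0.408 and 0.883 CPM in Hepa1-6, against 449, 463 and 472 CPM in Hep53.4 (log2 -10.04 ± 0.23). Their relative Col6a3 ran the other way, at 6.67, 8.06 and 8.49 CPM in Hepa1-6, against 0.356, 1.32 and 1.71 CPM in Hep53.4 (log2 2.78 ± 0.19). Col4a1, Col6a1 and Col6a3 were chosen after their values were seen.

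Other matrix genes were higher in Hepa1-6. Dcn, the proteoglycan decorin, chosen after its values were seen, stood at 314, 326 and 396 CPM in Hepa1-6, against 9.03, 9.29 and 13.96 CPM in Hep53.4 (log2 5.05 ± 0.05, adjusted p = 4.66e-20, edgeR). Fbln1, fibulin-1, stood at 13.2, 15.5 and 20.96 CPM in Hepa1-6, against 0, 0 and 0.0711 CPM in Hep53.4 (log2 10.01 ± 0.28), and Thbs2, thrombospondin-2, at 7.39, 16.6 and 19.3 CPM in Hepa1-6, against 0, 0.0561 and 0.147 CPM in Hep53.4 (log2 7.79 ± 0.18). Fn1, fibronectin, which hepatocytes also secrete, stood at 6332, 6459.8 and 9337 CPM in Hepa1-6, against 3588, 3709.6 and 3799 CPM in Hep53.4 (log2 0.97 ± 0.08), and Sparc, a collagen-binding protein, at 579, 680.0 and 744 CPM in Hepa1-6, against 148, 214 and 230.5 CPM in Hep53.4 (log2 1.78 ± 0.04). Fibrillar collagen I was low in both lines: Col1a1 stood at 4.07, 4.802 and 6.098 CPM in Hepa1-6, against 0.155, 0.289 and 0.489 CPM in Hep53.4 (log2 4.05 ± 0.21) and Col1a2 at 0.338, 0.536 and 2.57 CPM in Hepa1-6, against 0, 0 and 0.142 CPM in Hep53.4. None of the named matrix genes overlapped between the lines, and under sgNeg2 alone Fn1 averaged 9286 CPM in Hepa1-6 and 3659 CPM in Hep53.4, Col4a1 3.65 CPM in Hepa1-6 and 689 CPM in Hep53.4, and Dcn 390.0 CPM in Hepa1-6 and 13.2 CPM in Hep53.4.

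Hepa1-6 held RNA of antiviral genes in cultures with no stated interferon treatment, and Hep53.4 held almost none of many of them. Of 53 interferon-stimulated genes 50 were tested, 40 were higher in Hepa1-6 and 4 lower, with a median log2 of 3.50 and with 33 at least 4-fold higher against 1 at least 4-fold lower, Ifitm1 (mean 0.235 CPM in Hepa1-6 and 4.63 CPM in Hep53.4). Isg15, the ubiquitin-like modifier, stood at 20.7, 29.7 and 32.7 CPM in Hepa1-6, against 0.0356, 0.117 and 0.147 CPM in Hep53.4 (log2 8.06 ± 0.13, adjusted p = 6.42e-18, edgeR). Rsad2, viperin, stood at 46.8, 63.6 and 65.2 CPM in Hepa1-6, against 0, 0.0356 and 0.147 CPM in Hep53.4 (log2 10.06 ± 0.19). Ifi44 had 7.202, 9.39 and 11.1 CPM in Hepa1-6 and no counts in Hep53.4, at least 937-fold. Ifit1, which binds viral RNA, stood at 5.64, 8.199 and 10.1 CPM in Hepa1-6, against 0, 0 and 0.116 CPM in Hep53.4 (log2 8.11 ± 0.36). All 4 genes were separated without overlap.

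With sgNeg2 alone the same number of interferon-stimulated genes was tested, 39 were higher and 8 lower in Hepa1-6, so the lower calls were 8 there against 4 over all libraries. Isg15 averaged 21.9 CPM in Hepa1-6 and 0.0855 CPM in Hep53.4 with sgNeg2 alone (log2 7.998, adjusted p = 4.12e-16, edgeR), and Rsad2 averaged 46.96 CPM in Hepa1-6 and 0.0356 CPM in Hep53.4 (log2 10.22). Exceptions existed. Lgals3bp, a secreted galectin-3 ligand, stood at 227, 241 and 269.8 CPM in Hepa1-6, against 578, 592 and 629 CPM in Hep53.4 (log2 -1.29 ± 0.03), and Ifi204, a DNA sensor of the Ifi200 family with close copies, at 5.17, 9.83 and 10.6 CPM in Hepa1-6, against 9.75, 11.96 and 16.2 CPM in Hep53.4; the call of Ifi204 (log2 -0.58 ± 0.23, adjusted p = 0.032, edgeR) was lost in edited cells (log2 -0.09) and without any single sgNeg2 library or without Hep53.4 sgRNA#2 replicate 2, with adjusted p between 0.0522 and 0.0843. Ifit2, chosen after its values were seen, stood at 8.77, 10.2 and 11.7 CPM in Hepa1-6, against 8.84, 9.99 and 11.8 CPM in Hep53.4 and was not called (log2 0.02 ± 0.08, adjusted p = 0.844, edgeR).

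Genes of the interferon gamma response were also higher in Hepa1-6. Of 35 genes 30 were tested, 26 were higher and 1 lower, with a median log2 of 4.72 (4.56 with genes that had no counts in one line set at their bound). By at least 4-fold 21 were higher and 1 lower. Cxcl10, a T-cell chemokine, stood at 42.2, 52.2 and 55.2 CPM in Hepa1-6, against 0.196, 0.263 and 0.395 CPM in Hep53.4 (log2 7.44 ± 0.09, adjusted p = 2.58e-19, edgeR). The exception was Vcam1, a leukocyte adhesion molecule, at 0.347, 0.523 and 0.92 CPM in Hepa1-6, against 34.1, 35.4 and 37.8 CPM in Hep53.4 (log2 -5.96 ± 0.12). Cxcl9 had 8 counts over the 6 Hepa1-6 libraries and 0 in Hep53.4. Under sgNeg2 alone Cxcl10 averaged 42.7 CPM in Hepa1-6 and 0.223 CPM in Hep53.4.

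Signalling components were higher in Hepa1-6 for most receptors and factors and lower for the kinases Jak1 and Jak2. Of 24 receptors, kinases and factors 21 were tested, 16 were higher in Hepa1-6 and 5 lower, with a median log2 of 0.64. The 4-fold margin was reached by 6 of the higher and 0 of the lower. Irf7, the factor that amplifies interferon production, stood at 154, 197 and 212 CPM in Hepa1-6, against 1.56, 3.01 and 4.38 CPM in Hep53.4 (log2 5.93 ± 0.10, adjusted p = 1.94e-15, edgeR). Among the kinases were Jak1 at 51.1, 54.8 and 65.2 CPM in Hepa1-6, against 186, 192 and 194 CPM in Hep53.4 (log2 -1.75 ± 0.04) and Jak2 at 93.96, 104 and 107 CPM in Hepa1-6, against 179, 195 and 201 CPM in Hep53.4 (log2 -0.92 ± 0.04). The kinase Tyk2, chosen after its values were seen, stood at 17.6 to 25.2 CPM in Hepa1-6, against 24.0 to 27.8 CPM in Hep53.4, so the lines overlapped. Ifngr1 and Ifnar1, ligand-binding receptor chains chosen after their values were seen, differed by log2 2.05 ± 0.06 and log2 0.39 ± 0.04. Under sgNeg2 alone Irf7 averaged 155 CPM in Hepa1-6 and 2.16 CPM in Hep53.4, and Jak1 averaged 63.9 CPM in Hepa1-6 and 192 CPM in Hep53.4.

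Sensors of nucleic acids and microbial patterns were called higher in Hepa1-6 in 18 of 26 tested, against 7 lower, with a median log2 of 0.87. Among all genes 43.6% were called higher and 42.4% lower. At least 4-fold apart were 6 sensors higher and 2 lower, beside 13.9% and 8.84% of all genes. Zbp1, a sensor of Z-form nucleic acid, stood at 13.2, 18.1 and 20.02 CPM in Hepa1-6, against 0, 0 and 0.116 CPM in Hep53.4 (log2 8.66 ± 0.31), and Dhx58, the RNA helicase LGP2, at 17.2, 19.7 and 22.1 CPM in Hepa1-6, against 0.116, 0.63 and 0.753 CPM in Hep53.4 (log2 5.14 ± 0.18). Tmem173, the adaptor STING, chosen after its values were seen, stood at 74.3, 79.5 and 88.9 CPM in Hepa1-6, against 2.23, 2.38 and 3.69 CPM in Hep53.4 (log2 4.91 ± 0.07, adjusted p = 1.89e-18, edgeR). Tlr3, the endosomal receptor of double-stranded RNA, was lower in Hepa1-6, at 0.929, 1.26 and 1.76 CPM in Hepa1-6, against 7.76, 9.105 and 9.33 CPM in Hep53.4 (log2 -2.80 ± 0.13), and so was Tlr4, the receptor of lipopolysaccharide, at 17.3, 23.6 and 24.4 CPM in Hepa1-6, against 32.4, 35.6 and 38.3 CPM in Hep53.4 (log2 -0.71 ± 0.05).

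Class I presentation was higher in Hepa1-6 in 19 of 21 tested members, with 1 lower and a median log2 of 1.40. By at least 4-fold 8 members were higher and 1 lower, beside 13.9% and 8.84% of all genes. Psmb8, a catalytic subunit of the immunoproteasome, stood at 53.5, 68.3 and 73.6 CPM in Hepa1-6, against 0, 0.0894 and 0.155 CPM in Hep53.4 (log2 9.45 ± 0.14, adjusted p = 7.87e-18, edgeR), and its partner Psmb9 stood at 11.3, 13.6 and 14.98 CPM in Hepa1-6 with no counts in Hep53.4, at least 1366-fold. Tap1, the peptide transporter, chosen after its values were seen, stood at 129, 138 and 144 CPM in Hepa1-6, against 1.41, 2.44 and 3.56 CPM in Hep53.4 (log2 5.85 ± 0.13). B2m, the light chain of class I, was high in both lines, at 689, 823 and 843 CPM in Hepa1-6, against 371, 387 and 412 CPM in Hep53.4 (log2 1.02 ± 0.04). Under sgNeg2 alone Psmb8 averaged 56.3 CPM in Hepa1-6 and 0.113 CPM in Hep53.4, and B2m averaged 831 CPM in Hepa1-6 and 375 CPM in Hep53.4.

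The heavy chains parted in opposite directions. H2-K1 stood at 0.0196, 0.0491 and 0.148 CPM in Hepa1-6, against 97.6, 107 and 112 CPM in Hep53.4 (log2 -10.68 ± 0.11, adjusted p = 4.95e-20, edgeR; sgNeg2 alone log2 -10.95), the only member of the class I list called lower in Hepa1-6. H2-D1, chosen after its values were seen, stood at 222, 235 and 239.7 CPM in Hepa1-6, against 47.98, 50.6 and 53.5 CPM in Hep53.4 (log2 2.199 ± 0.03), and H2-Q4 at 22.7, 29.5 and 33.4 CPM in Hepa1-6, against 0.323, 0.497 and 0.793 CPM in Hep53.4 (log2 5.82 ± 0.15). Under sgNeg2 alone H2-K1 averaged 0.0482 CPM in Hepa1-6 and 97.8 CPM in Hep53.4, and H2-D1 averaged 236 CPM in Hepa1-6 and 48.3 CPM in Hep53.4. These genes are closely related and differ between mouse strains, so the authors' counting could split or drop reads among them, and the values of single heavy chains are uncertain. Class II members were low, with 6 of 10 tested and all 6 at least 4-fold higher in Hepa1-6, beside 13.9% of all genes. With sgNeg2 alone 4 were tested and 3 were at least 4-fold higher. In Hep53.4 0 of the 10 reached a mean of 5 CPM. The 2 tested members with no counts in one line could pass the filter only through the other, so their direction followed from it. H2-DMb1 stood at 5.65, 6.59 and 8.82 CPM in Hepa1-6, against 0.126, 0.235 and 0.251 CPM in Hep53.4. Cd74, the invariant chain, stood at 6.11, 9.51 and 11.98 CPM in Hepa1-6, against 1.12, 1.52 and 1.76 CPM in Hep53.4.

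**Figure D4:**
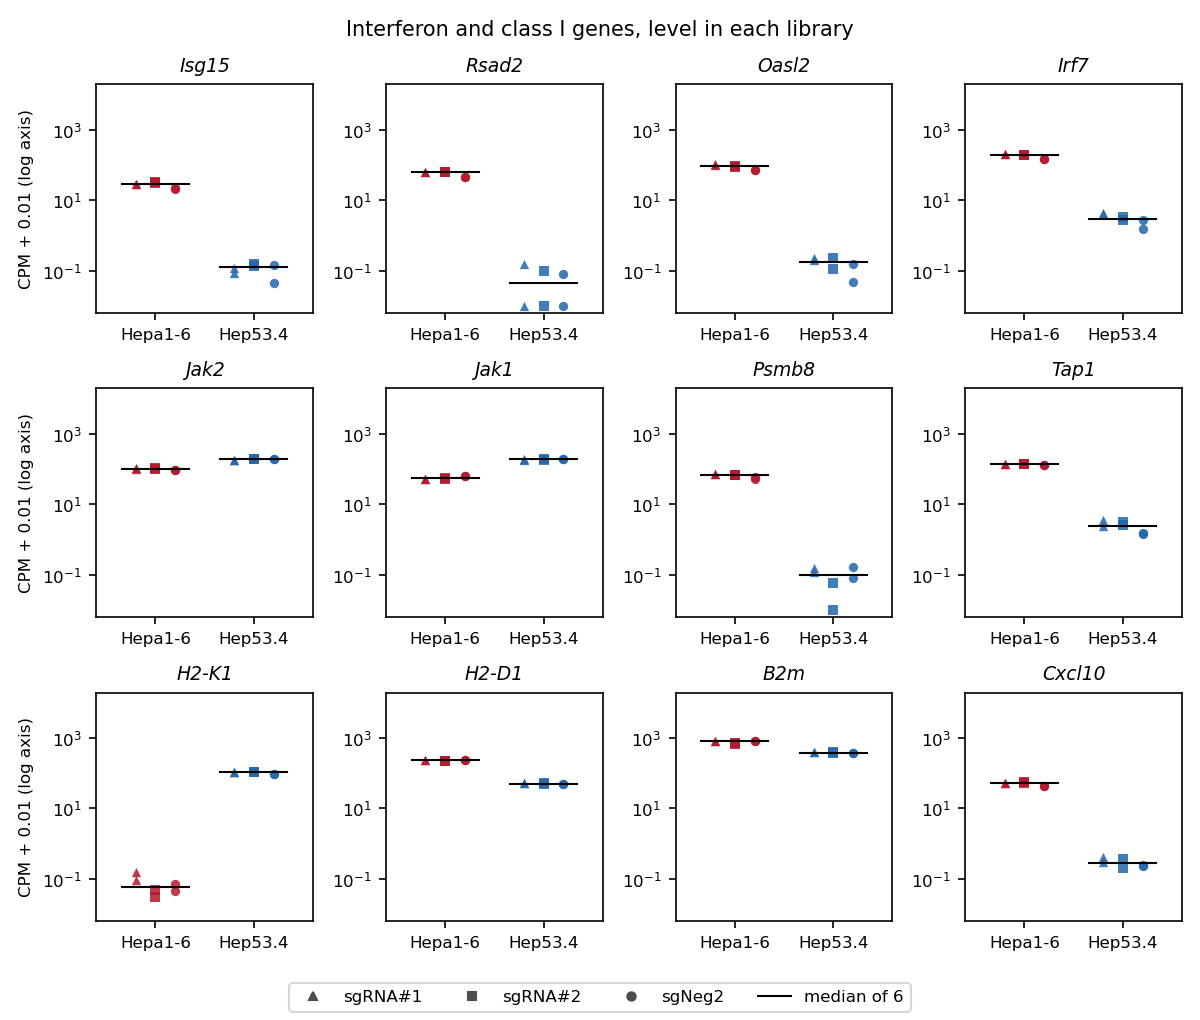
Level of 12 interferon and class I genes in each library, as CPM plus 0.01 on a log axis, with Hepa1-6 on the left and Hep53.4 on the right; marker shapes are guides and lines are medians of 6. Isg15, Rsad2, Oasl2 and Psmb8 sit at 20.7 CPM or more in Hepa1-6 and at 0.215 CPM or less in Hep53.4, while Jak1, Jak2 and H2-K1 are lower in Hepa1-6.

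Chemokines and ligands of immune receptors were mostly higher in Hepa1-6. Of 30 chemokines and cytokines 22 were tested, 16 were higher in Hepa1-6 and 5 lower, with a median log2 of 1.15. At the 4-fold margin 10 were higher and 1 lower, beside 13.9% and 8.84% of all genes. Ccl5, a T-cell chemokine, stood at 8.15, 10.5 and 13.7 CPM in Hepa1-6, against 0, 0 and 0.0387 CPM in Hep53.4; 2 counts were found in Hep53.4, and the ratio of levels was 1671 (exact 95% counting interval 462 to 13807). Cxcl2, a neutrophil chemokine, stood at 3.85, 6.12 and 6.54 CPM in Hepa1-6, against 0, 0.018 and 0.0711 CPM in Hep53.4 (log2 7.61 ± 0.31). Ccl2, a monocyte chemokine, at 4.34, 5.704 and 6.64 CPM in Hepa1-6, against 12.9, 18.1 and 18.5 CPM in Hep53.4 (log2 -1.56 ± 0.09), and the alarmin Il33, at 50.2, 64.7 and 67.1 CPM in Hepa1-6, against 127, 152 and 155 CPM in Hep53.4 (log2 -1.26 ± 0.03), were lower in Hepa1-6. Among 19 checkpoint and natural killer ligands 15 were tested, 12 were higher and 3 lower, 7 and 1 of them by at least 4-fold. Cd274, which encodes PD-L1, stood at 2.85, 4.197 and 4.45 CPM in Hepa1-6, against 0.851, 0.968 and 1.09 CPM in Hep53.4 (log2 2.00 ± 0.14, adjusted p = 1.45e-09, edgeR), and the death receptor Fas at 13.99, 15.1 and 17.7 CPM in Hepa1-6, against 0.155, 0.436 and 0.709 CPM in Hep53.4 (log2 5.05 ± 0.17). Lower in Hepa1-6 were Cd47, the signal that restrains phagocytes, at 77.2, 90.7 and 98.7 CPM in Hepa1-6, against 108, 113 and 124 CPM in Hep53.4 (log2 -0.38 ± 0.04), and Raet1e, a ligand of NKG2D, at 0, 0 and 0.0202 CPM in Hepa1-6, against 3.52, 5.16 and 6.02 CPM in Hep53.4; 1 count of Raet1e was found in Hepa1-6, and the ratio of Hepa1-6 to Hep53.4 was 0.000644 (exact 95% counting interval 1.63e-05 to 0.00359).

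Genes outside the lists gave some of the largest differences. By the rule of largest change among separated genes at 5 CPM or more, Wif1, a secreted Wnt inhibitor, stood at 29.7, 33.4 and 72.3 CPM in Hepa1-6 with no counts in Hep53.4, at least 4633-fold higher. Fmo2, a flavin monooxygenase, followed with 23.1, 25.2 and 34.6 CPM in Hepa1-6 and no counts in Hep53.4. Hpn, the liver serine protease hepsin, stood at 226, 231 and 279 CPM in Hepa1-6, against 0, 0.0105 and 0.0735 CPM in Hep53.4 (log2 13.25 ± 0.12), and Klb, the beta-klotho co-receptor for the hepatocyte FGF signals, at 49.1, 54.9 and 76.2 CPM in Hepa1-6, against 0, 0 and 0.0178 CPM in Hep53.4. In the other direction Ndnf, a secreted neurotrophic factor, had no counts in Hepa1-6 and 87.6, 111 and 121 CPM in Hep53.4, at least 10879-fold higher there. Dlx2, a homeobox factor, Nebl, an actin-binding protein, Ttll7, Tmem181a and Jph1 also had no counts in Hepa1-6, with medians from 22.1 to 46.3 CPM in Hep53.4; Tmem181a has close copies that may share its reads. Epdr1 stood at 0, 0 and 0.0366 CPM in Hepa1-6, against 74.03, 86.1 and 93.1 CPM in Hep53.4, with 2 counts in Hepa1-6.

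Strictly line-restricted expression was rarer. At 5 CPM or more in every library of Hepa1-6 and under 0.1 CPM in every library of Hep53.4 stood 52 of the 13362 genes tested. Of the 536 list genes tested 11 were among them. The opposite pattern held for 93 of the 13362 and for 2 of the 536. The lists were written with earlier results of these data known, so the share of list genes in either pattern is no independent evidence. The 2 list genes of the second pattern are too few to set against all genes. The 11 included Ccl5, F2, Fbln1, Fgb, Ifi44, Kng1, Mlxipl, Oas2, Psmb9 and Tat, and the 2 were Foxf2 and Ncam1, both of the mesenchymal lists.

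The line difference was present with and without Dot1l editing. The edited libraries and the sgNeg2 libraries are disjoint, and 12620 genes were tested in both. At least 4-fold calls numbered 2594 in edited cells and 2741 with sgNeg2, and 2420 were in both, which is 93.3% of the edited calls and 88.3% of the sgNeg2 calls, with 0 in opposite directions. At any fold 9776 genes were called in both and 182 of them had opposite signs. Among list genes 7 were of that kind, all with small differences: Tnfrsf12a, Aldh1a1, Mndal, Ccna2, Cdc20, Kif20a and Nfe2l2. Across genes, which are not independent replicates, the 2 sets of log2 differences correlated with r = 0.964.

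**Figure D5:**
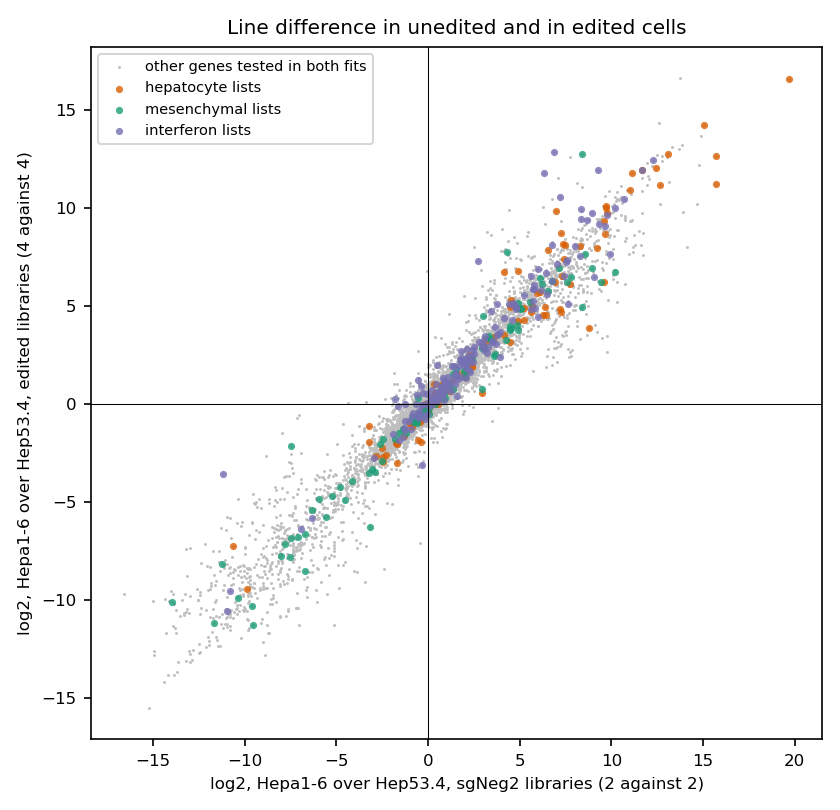
Log2 difference, Hepa1-6 over Hep53.4, in edited libraries (vertical axis, 4 against 4) and in sgNeg2 libraries (horizontal axis, 2 against 2), for 12620 genes tested in both; coloured points are hepatocyte, mesenchymal and interferon lists. Points lie along the diagonal, with r = 0.964 across genes.

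Spread within a line was small beside the difference between lines. Of the list genes at 5 CPM or more, 362 in Hepa1-6 had a median ratio of highest to lowest library of 1.28, and 283 in Hep53.4 of 1.21. Ratios above 2 were found for 12 genes in Hepa1-6 and 2 in Hep53.4, and none exceeded 4 in either line. Zbtb20, a repressor of Afp in adult liver, was the widest in Hepa1-6, at 5.30 to 15.9 CPM, and Aqp5 the widest in Hep53.4, at 7.47 to 15.6 CPM.

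Markers of other cell types were read to see what the cultures held. Of 15 leukocyte and Kupffer cell markers 4 were tested and all 4 were at least 4-fold higher in Hepa1-6. Among all genes 13.9% were at least 4-fold higher and 8.84% at least 4-fold lower. The other 11 markers were too low to test. In Hep53.4 0 of the 15 averaged 5 CPM or more, and 8 had no counts there, against 2 in Hepa1-6. The summed level was 72.1 to 84.6 CPM in Hepa1-6 and 3.87 to 7.58 CPM in Hep53.4. Most of it was Cd68, a lysosomal protein, at 60.7, 70.1 and 74.8 CPM in Hepa1-6, against 3.21, 4.84 and 6.68 CPM in Hep53.4. The defining markers were at or near 0: Cd3e and Vsig4 had no counts in either line, and Ptprc, which marks all leukocytes, had 10 counts over the 6 libraries of each line. Csf1r, the receptor of colony-stimulating factor 1, stood at 4.99, 6.37 and 7.87 CPM in Hepa1-6, against 0.0718, 0.135 and 0.244 CPM in Hep53.4 (log2 5.43 ± 0.19).

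For stellate cells 5 of 11 markers were tested, 4 at least 4-fold higher and 1 at least 4-fold lower in Hepa1-6 (2 and 1 called of 3 tested with sgNeg2 alone), with a summed level of 814.8 to 1182 CPM in Hepa1-6 and 136 to 191 CPM in Hep53.4, nearly all of it Ecm1, which hepatocytes may also carry. Lrat, Hand2 and Gfap had no counts in either line. Des, the filament desmin, stood at 31.01, 34.5 and 42 CPM in Hepa1-6, against 0.116, 0.326 and 0.505 CPM in Hep53.4 (log2 6.84 ± 0.14). For endothelial cells 8 of 13 were tested, 5 higher and 3 lower, 3 and 2 of them by at least 4-fold. Their sums were 51.7 to 55.7 CPM in Hepa1-6 and 29.9 to 51.9 CPM in Hep53.4. Cdh5, VE-cadherin, stood at 0.0347, 0.102 and 0.196 CPM in Hepa1-6, against 25.2, 28.5 and 48.2 CPM in Hep53.4 (log2 -8.37 ± 0.16), and the scavenger receptor Stab1 at 20.01, 21.1 and 33.7 CPM in Hepa1-6, against 0, 0.0377 and 0.142 CPM in Hep53.4 (log2 9.01 ± 0.20), so single markers of one cell type pointed to different lines. Of 9 lung epithelial markers 5 were tested, with 4 higher and 1 lower (2 and 1 with sgNeg2 alone), and sums of 8.07 to 10.5 CPM in Hepa1-6 and 8.30 to 16.5 CPM in Hep53.4. The part of these markers in the differences above was not tested.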

How the data were processed

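RNA was measured by RNA sequencing of total RNA from 12 libraries of Hepa1-6 and Hep53.4 (2 libraries per line and guide). The authors deposited counts per gene symbol, 1 file per library, with no normalization seen in the values. The submitters' processing notes name Trim Galore, SAMtools 1.9, HISAT2 2.2.1 and DESeq2 1.36.0 beside the genome builds mm10 and hg38, with no roles; how reads were counted, with which annotation and strand setting, is not given in the sources used here. Lines with a blank name (1721 in each Hepa1-6 sgNeg2 file, 1 in each Hep53.4 sgNeg2 file) were dropped.

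Counts were fitted with edgeR 4.0.16 in R 4.3.3 (filterByExpr with a minimum count of 10, TMM scaling, quasi-likelihood test, line plus guide), with Benjamini-Hochberg adjustment over all genes. The sgNeg2 libraries were also fitted alone. Alternatives were RLE and upper-quartile scaling, DESeq2 1.42.0, no filter, line-by-guide groups, edited cells alone, a joint fit with 6 Lewis lung carcinoma (LLC) libraries, a replicate block, a 2-fold threshold and each of 12 libraries left out. The members and gene lists were chosen with earlier results of these data known. Named genes were a panel of 34; the 8 largest and 8 smallest differences among called genes without overlap at 5 CPM or more in the higher line; and 2 members per direction from each list with 3 or more called members. A few of the genes so chosen are left out of the text. Intervals and the 3-count floor cover counting error only. Genes are named as the files name them; medians by chromosome were planned and not run, as mouse positions are not used here. Correlations of deviations between same-numbered libraries ran from -0.02 to 0.068 over 15 pairs of groups. Such a check over all genes cannot show a pairing that affects only some of them, so pairing by replicate number stayed undecided. Replicates differed beyond sampling noise, with a chi-square per degree of freedom of 62.8 in Hepa1-6 sgRNA#1 and 4.09 to 8.64 in the other groups. Hepa1-6 sgRNA#1 holds the library with high Rn45s. Each library entered the fit as 1 sample, and this spread does not show that replicates were separate cultures. In simulated counts 200 genes were changed by 2-fold or 4-fold, with no guide effect. There the 12-library fit over 13030 genes recovered 91% of 2-fold and 96% of 4-fold changes, with 6.5% of calls false. In the libraries themselves 86% of genes were called, so these rates do not describe this comparison.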

Additional observations from a re-analysis of the deposited data

Results flagged for a closer look

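Sets of 6 libraries were checked, 1 for each line in which a named gene or Rn45s averaged 5 CPM or more. Of 156 sets 2 held a library far from the others by Dixon's criterion, which chance flags in about 1 of 20 sets of alike samples. Each set here mixed 3 guides, so that rate may not hold. Rn45s took 22232 CPM of the total in Hepa1-6 sgRNA#1 replicate 2, with the other Hepa1-6 libraries between 2974 and 3997 CPM. Bub1, a mitotic checkpoint kinase, stood at 13.5 CPM in Hep53.4 sgRNA#2 replicate 2, with the other Hep53.4 libraries between 10.6 and 11.3 CPM; all were below the Hepa1-6 libraries, which ran from 29.1 to 37.5 CPM.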

How the results depend on the processing

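The counts recomputed were the genes called higher and lower over all genes, under each alternative, and the list members called at least 4-fold apart, for lists with 3 or more such calls, under each but the 2-fold test. None of these changed by over 1.5 times with RLE or upper-quartile scaling, DESeq2, no filter, line-by-guide groups, edited cells alone or any single library left out. Other counts were not recomputed under those settings, apart from the shares of all genes given for edited cells and their overlap with sgNeg2 cells. A test against 2-fold called 2628 genes higher and 2058 lower in Hepa1-6. With sgNeg2 alone at least 4-fold higher calls were 3 for class II genes and 2 for stellate markers, with fewer genes and samples tested. List calls at any fold, compared between sgNeg2 alone and all 12 libraries, moved by over 1.5 times for interferon-stimulated genes lower in Hepa1-6 (8 against 4), enzymes and transporters lower (3 against 5), lung markers higher (2 against 4) and stellate markers higher (2 against 4). The joint fit with LLC gave 5 mesenchymal factors at least 4-fold higher; the cause was not tested. Hnf4a reversed to log2 0.012 with sgNeg2 alone. The replicate block called 5791 genes higher and 5630 lower, 11421 in all against 11487 without it, and among named genes changed the call of Krt8 alone. The median log2 of all genes was 0.021 with RLE and 0.069 with upper-quartile scaling, against 0.013 with TMM. Single-gene calls that were lost elsewhere included those of Dot1l, Hnf4a, Krt8, Lgr5 and Ifi204. Depth limits genes under about 10 counts in a library, and mean levels below 0.1 CPM rest on few counts.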

Other observations

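Cell cycle genes were expressed in both lines with small differences, and a few liver cancer driver genes were at least 4-fold apart. All 30 cell cycle genes were tested, 16 were higher in Hepa1-6 and 8 lower, with a median log2 of 0.23 and none 4-fold apart. Mki67, the proliferation antigen, chosen after its values were seen, stood at 112, 123 and 153 CPM in Hepa1-6, against 119.8, 124 and 126 CPM in Hep53.4 and was not called (log2 0.05 ± 0.05, adjusted p = 0.408, edgeR). Tpx2, a spindle assembly factor, stood at 179.6, 197 and 215 CPM in Hepa1-6, against 77.3, 86.5 and 90.6 CPM in Hep53.4 (log2 1.21 ± 0.05), and Rrm2, a subunit of ribonucleotide reductase, ran the other way, at 27.7, 28.8 and 34.8 CPM in Hepa1-6, against 70.8, 76.8 and 80.3 CPM in Hep53.4 (log2 -1.34 ± 0.05). Of 34 liver cancer driver genes 33 were tested, 17 higher and 14 lower, with 7 at least 4-fold higher and 0 at least 4-fold lower. Among all genes 43.6% were called higher and 42.4% lower. By at least 4-fold 13.9% were higher and 8.84% lower, 22.8% together, so the driver counts are not read as a trait of driver genes. Cdkn2a, which encodes the tumour suppressors p16 and p19Arf, stood at 8.33, 8.904 and 10.6 CPM in Hepa1-6, against 0, 0.0557 and 0.126 CPM in Hep53.4 (log2 7.14 ± 0.23), and Mycl, a Myc family member, at 19.3, 21.9 and 26.1 CPM in Hepa1-6, against 0.0711, 0.17 and 0.379 CPM in Hep53.4 (log2 6.85 ± 0.15). Ccnd1, cyclin D1, stood at 665, 693 and 712 CPM in Hepa1-6, against 2179.7, 2241 and 2304 CPM in Hep53.4 (log2 -1.70 ± 0.03), and Yap1, the Hippo pathway effector, at 64.4, 67.3 and 74.3 CPM in Hepa1-6, against 151, 161 and 179.7 CPM in Hep53.4 (log2 -1.27 ± 0.04), both lower in Hepa1-6 without overlap.

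Xist, the RNA of the inactive X chromosome, chosen after its values were seen, stood at 53.44, 58.7 and 69.7 CPM in Hepa1-6, against 0.404, 0.748 and 1.24 CPM in Hep53.4 (log2 6.16 ± 0.14). The Y-linked genes of the list were too low to test. For orientation, the LLC cells under sgNeg2, scaled jointly with the liver lines, averaged 0 CPM of Alb, 0.158 CPM of Afp, 0.0373 CPM of Hnf4a and 36.6 CPM of H2-K1.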
